A study of Mus musculus with 4 samples.

Results

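The aryl hydrocarbon receptor (AHR) and genes it controls were followed through 8 genes: the receptor gene Ahr, its partner Arnt, the feedback genes Ahrr and Tiparp, and the enzyme genes Cyp1a1, Cyp1a2, Cyp1b1 and Nqo1. All probe sets annotated to these genes were taken, which gave 17 of the 45037 probe sets on the arrays that are no controls. The genes were chosen because berberine, a plant alkaloid, is a reported ligand of the receptor, with earlier results of these data known. RNA of MC/9, a line of mouse mast cells from the liver of a (B6 X A/J)F1 animal per the labels, was hybridised to Affymetrix Mouse Genome 430 2.0 arrays, on which a probe set of short oligonucleotides reads a transcript. The groups were cells given berberine at 10 microM together with 500 microg/ml of an IgE antibody against the hapten DNP (BER+DNP), cells given only berberine (BER), cells given only the antibody (DNP) and untreated cells (control). Treatment lasted 24 h, with 6 h of culture after it, in BER+DNP, BER and DNP; no times are given for the control. All cells grew in medium with fetal bovine serum and a rat growth factor supplement. Each group held 1 array, so the values below carry no replicate error and are given as a description, with no p-values.

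The AHR sits in the cytosol with chaperones of the HSP90 family until a small planar molecule binds it. It then moves into the nucleus, pairs with ARNT and binds DNA at the xenobiotic response element, whose core is GCGTG. Cyp1a1, Cyp1a2 and Cyp1b1, which encode cytochrome P450 enzymes that oxidise aromatic compounds, are its classical targets, and Cyp1a1 is the gene most often used to read its activity. AHRR, which competes for ARNT, and TIPARP, a mono-ADP-ribosyltransferase that promotes breakdown of the receptor, are both induced by the receptor and restrain it. NQO1, a quinone reductase, is a target of the AHR and of NRF2, the transcription factor of the oxidative stress response.

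The promoters of Cyp1a1 and Cyp1b1 are shown because, unlike that of Cyp1a2, they hold the core word close to their start sites. They run from 250 bases before to 50 bases after the start and come from RefSeq on mouse assembly GRCm38.p6, where Cyp1a1 lies at chr9:57697363-57697662 on the plus strand and Cyp1b1 at chr17:79715012-79715311 on the minus strand. Both are written 5′ to 3′ on the strand of the gene, with the core word in capitals (GCGTG, or CACGC where it lies on the other strand).
Cyp1a1: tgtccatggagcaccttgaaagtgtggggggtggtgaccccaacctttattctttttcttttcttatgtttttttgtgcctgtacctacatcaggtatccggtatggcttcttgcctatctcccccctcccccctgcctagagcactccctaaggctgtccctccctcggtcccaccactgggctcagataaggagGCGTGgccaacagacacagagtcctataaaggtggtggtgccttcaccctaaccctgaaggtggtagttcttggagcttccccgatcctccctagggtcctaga
Cyp1b1: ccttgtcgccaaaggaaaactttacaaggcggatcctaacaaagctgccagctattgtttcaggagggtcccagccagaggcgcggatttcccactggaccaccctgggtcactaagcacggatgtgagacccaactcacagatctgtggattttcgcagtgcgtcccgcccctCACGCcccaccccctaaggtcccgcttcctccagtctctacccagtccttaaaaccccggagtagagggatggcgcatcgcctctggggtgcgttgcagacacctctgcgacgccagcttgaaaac
The word begins 54 bases before the start site in Cyp1a1 and 76 bases before it, on the other strand, in Cyp1b1.

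Of the 8 genes, 7 matched a promoter in this table, and 5 of the 7 held GCGTG on either strand, as did 32.4% of all 32851 promoters. Beside Cyp1a1 and Cyp1b1, Ahrr held the word 3 times, Tiparp once and Arnt, the receptor's partner, once, 29 bases before the start site. The Ahrr copy nearest the start site, 27 bases before it, and the Tiparp copy, 170 bases before the start and on the other strand, read as follows.
Ahrr: ggcggctcGCGTGctggggtg
Tiparp: gtccggagCACGCgcacggga
Only the Ahrr promoter held the longer form TNGCGTG, which contains the core word and stood in 5.07% of all promoters. The promoters of Cyp1a2 and Nqo1 held no GCGTG in this window. TGACNNNGC, a shortened form of the antioxidant response element that NRF2 binds, stood on either strand in 1 of the 7, that of Arnt, and in 12.4% of all promoters. A match is a description of these letters and shows no binding.

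Signals are on the log2 scale as deposited, where 1 unit is 2-fold, and a difference is 1 array's log2 signal minus another's. Signals of different probe sets are not levels of expression and cannot be set against each other. Of the 17 probe sets, 10 had a mean over the 4 arrays at or above 3.14, the median of all probe sets, and 7 lay below it. The dim side held the single probe sets of Cyp1a1 and Ahrr and further probe sets of Ahr, Arnt, Cyp1b1 and Tiparp. Arnt had the widest gap between its own probe sets, with means between 1.98 and 6.15. Detection calls were not used here, so whether the dim transcripts were present at all cannot be said.

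**Figure D1:**
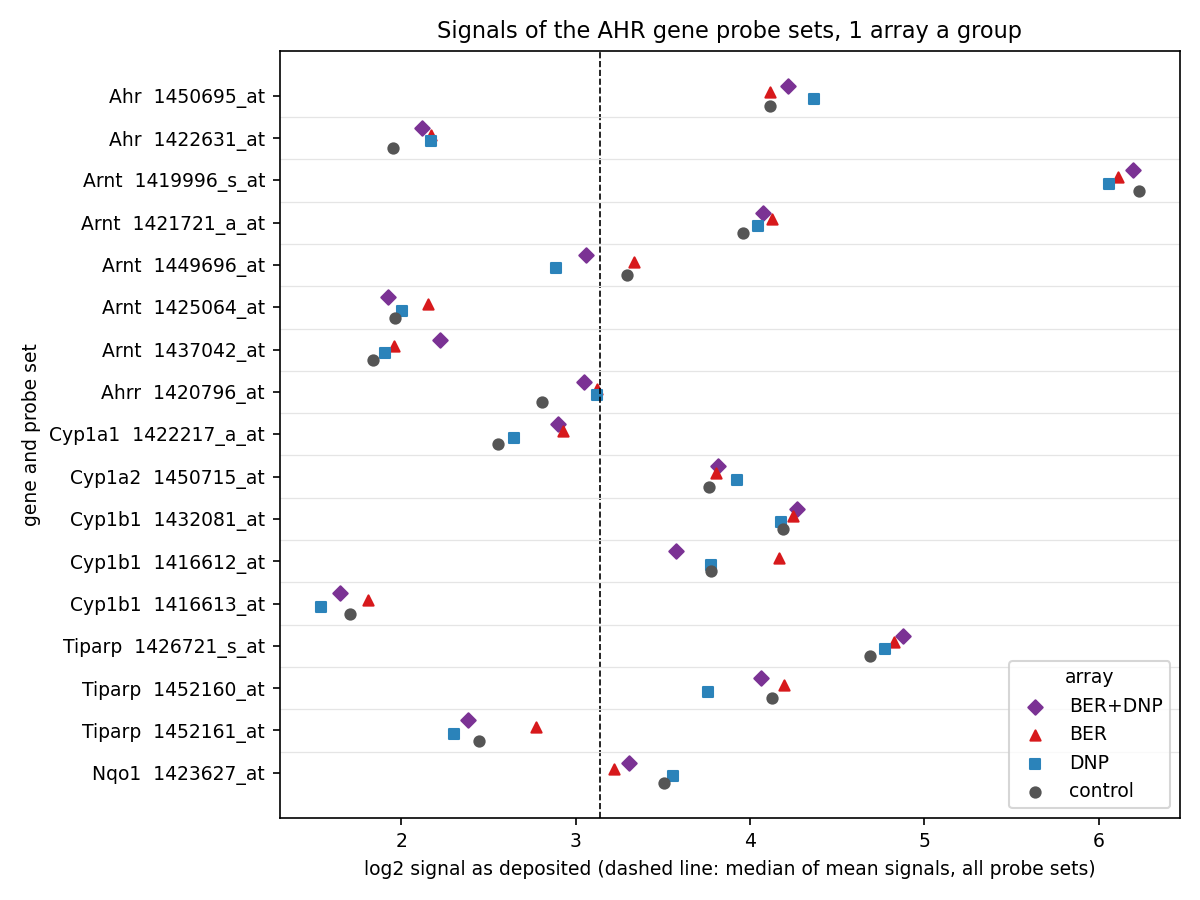
Log2 signals (horizontal axis) of the 17 probe sets of the 8 genes (vertical axis) on each of the 4 arrays, 1 point an array; the dashed line is the median of the mean signals of all probe sets, 3.14. The 4 points of a probe set lie close together, the widest spread being 0.59 in Cyp1b1 1416612_at, and Cyp1a1 lies left of the line on every array.

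No AHR gene lay 1.5-fold apart (0.58 on the log2 scale) with berberine. In BER against control 0 of the 17 probe sets passed that fold, where 1.67% of all probe sets did, and the differences ran between -0.28 and 0.39. In BER+DNP against DNP it was again 0 of 17, against 1.00% of all probe sets, with differences between -0.25 and 0.31. The middle 95% of all probe sets had differences between -0.46 and 0.45 in the first comparison and between -0.43 and 0.41 in the second. Every AHR probe set lay inside those ranges, which describe spread across genes and not replicate error. In RNA of a whole culture, fewer cells that express a gene and less of its RNA per cell cannot be told apart.

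The receptor gene Ahr was read by 2 probe sets. The brighter, 1450695_at, had log2 signals of 4.22 in BER+DNP, 4.12 in BER, 4.37 in DNP and 4.12 in control. DNP was the highest array, BER and control were equal, and the berberine differences were 0.00 without and -0.15 with the antibody. The dimmer, 1422631_at, had 2.12 in BER+DNP, 2.17 in BER, 2.17 in DNP and 1.95 in control, with control lowest.

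Arnt, the partner without which the receptor cannot bind DNA, had its brightest signal in 1419996_s_at, a type of probe set that can read several related transcripts. Its signals were 6.20 in BER+DNP, 6.11 in BER, 6.06 in DNP and 6.23 in control, so the berberine differences were -0.12 and 0.14 and changed sign between the pairs. Probe set 1421721_a_at had 4.07 in BER+DNP, 4.13 in BER, 4.05 in DNP and 3.96 in control, a span of 0.17. In 1449696_at, near the array median, both antibody arrays were the lower ones, with 3.06 in BER+DNP and 2.89 in DNP, against 3.34 in BER and 3.29 in control. The dim probe sets 1437042_at and 1425064_at had differences of 0.12 and 0.19 in BER against control, and of 0.31 and -0.08 in BER+DNP against DNP. The 5 probe sets of Arnt thus gave no common direction with either treatment.

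Cyp1a1 was higher on both berberine arrays than on both others, at dim signals. Its probe set 1422217_a_at had 2.90 in BER+DNP and 2.93 in BER, against 2.65 in DNP and 2.55 in control. The difference was 0.38 in BER against control, 1.30-fold, and 0.25 in BER+DNP against DNP, 1.19-fold. All 4 signals lay below the array median of 3.14, at the 40.5th percentile of probe sets by mean. Its range over the 4 arrays, 0.38, was at the 69.8th percentile of all probe sets.

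Cyp1a2, a neighbour of Cyp1a1 on chromosome 9, had 3.82 in BER+DNP, 3.80 in BER, 3.93 in DNP and 3.76 in control. The antibody arrays were the higher ones here, by 0.16 in DNP against control and only 0.01 in BER+DNP against BER. The berberine differences were 0.04 without and -0.11 with the antibody.

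Cyp1b1, the member of the family expressed mostly outside the liver, held the single difference past 1.5-fold. Probe set 1416612_at had 3.57 in BER+DNP, 4.16 in BER, 3.78 in DNP and 3.78 in control. The BER array stood alone at the top, so that BER+DNP against BER was lower by 1.51-fold, a difference of -0.59. Of the 17 probe sets it was the 1 that passed in that comparison, where 0.950% of all probe sets passed in either direction and 0.440% downwards. BER against control gave 0.39 and BER+DNP against DNP -0.20; the first of these and BER+DNP against BER share the BER array. The other probe sets of the gene did not share the pattern: 1432081_at, with the brightest Cyp1b1 signals, had 4.27 in BER+DNP, 4.25 in BER, 4.18 in DNP and 4.19 in control. The dim 1416613_at had 1.65 in BER+DNP, 1.81 in BER, 1.54 in DNP and 1.71 in control. In BER+DNP against BER these probe sets differed by 0.02 and -0.16.

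Neither of the feedback genes, Ahrr and Tiparp, passed 1.5-fold in any comparison. Ahrr, read by 1420796_at, had 3.05 in BER+DNP, 3.12 in BER, 3.12 in DNP and 2.81 in control. The control array was the low one and the 3 treated arrays lay within 0.08 of each other, so the difference was 0.32 in both BER against control and DNP against control, which share the control array. In BER+DNP against DNP it was -0.08.

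Tiparp was read by 3 probe sets. The brightest, 1426721_s_at, had 4.88 in BER+DNP, 4.83 in BER, 4.78 in DNP and 4.69 in control, with berberine differences of 0.14 without and 0.10 with the antibody. Probe set 1452160_at had 4.06 in BER+DNP, 4.20 in BER, 3.76 in DNP and 4.13 in control, and DNP was the low array. The dim 1452161_at had 2.38 in BER+DNP, 2.77 in BER, 2.30 in DNP and 2.44 in control, and BER was the high one. All 3 were above 0 in both berberine pairs, the largest difference being 0.33, or 1.25-fold.

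Nqo1 went the other way from Cyp1a1. Its probe set 1423627_at had 3.31 in BER+DNP and 3.22 in BER, against 3.56 in DNP and 3.51 in control. Berberine arrays were lower by 1.22-fold without the antibody (-0.28) and by 1.19-fold with it (-0.25). Nqo1 was the only 1 of the 17 probe sets below both arrays without berberine on both berberine arrays, as 16.8% of all probe sets were.

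**Figure D2:**
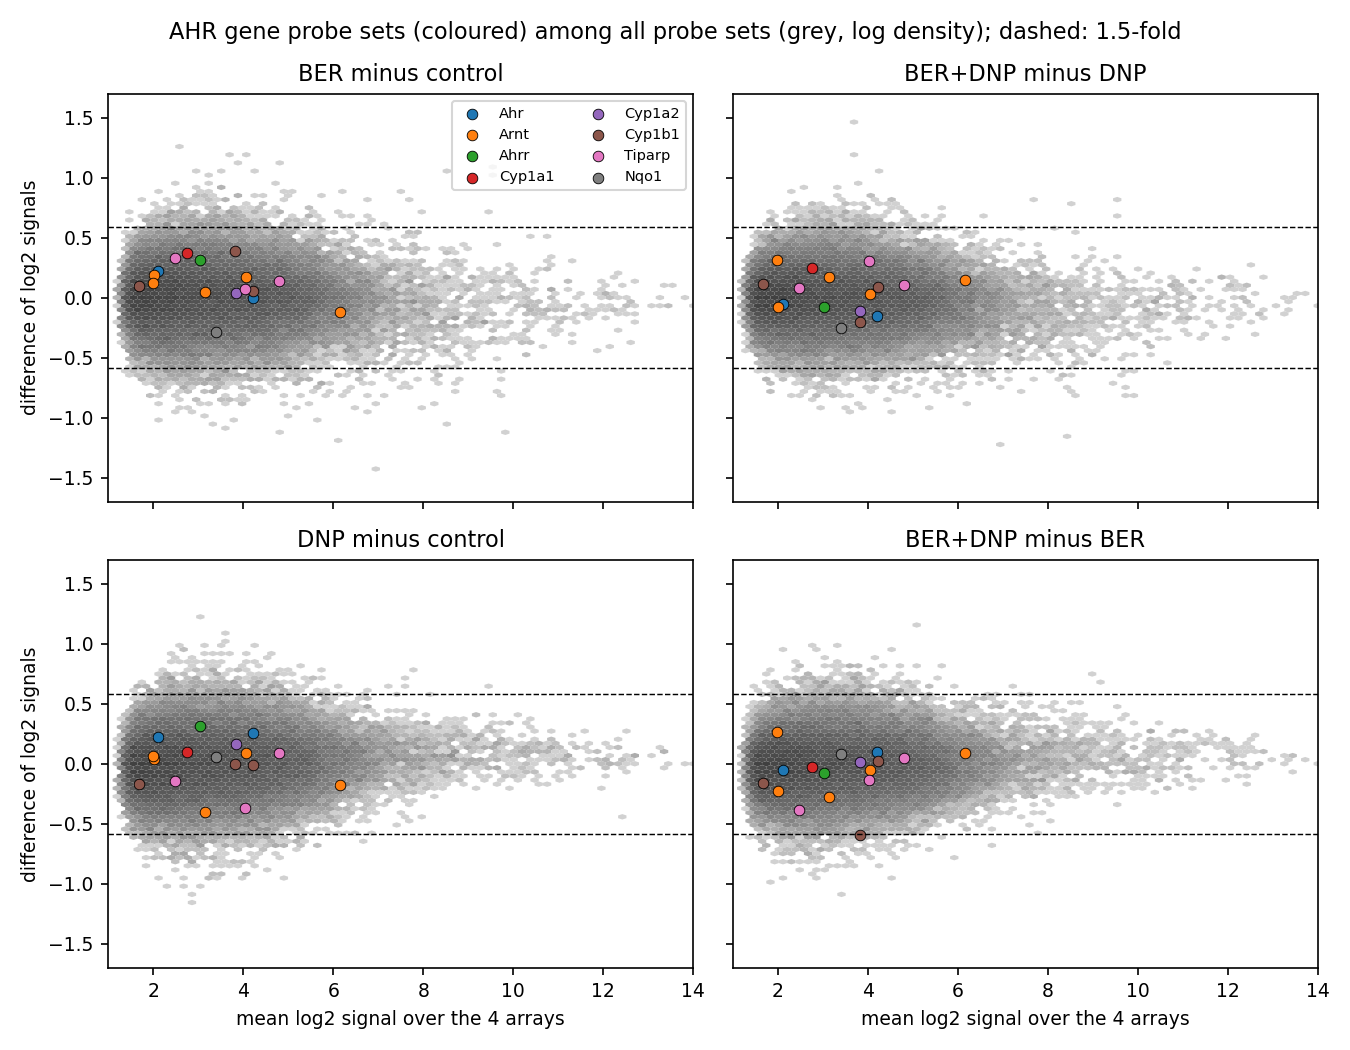
Difference of log2 signals (vertical axis) against mean log2 signal over the 4 arrays (horizontal axis) in 4 comparisons; coloured points are the 17 probe sets by gene, grey is the density of all 45037 probe sets and dashed lines mark 1.5-fold. The coloured points lie within the grey cloud and between the lines, except Cyp1b1 1416612_at at -0.59 in BER+DNP minus BER.

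The 2 berberine pairs, BER against control and BER+DNP against DNP, share no array. In both pairs 9 of the 17 probe sets lay above 0 and 1 below it, against 25.2% and 26.5% of all probe sets. Both berberine arrays were above both others in 5 of the 17, where 15.8% of all probe sets were, and below them in 1, where 16.8% were. The 5 were Cyp1a1, the brightest Cyp1b1 and Tiparp probe sets and 2 of Arnt, namely 1421721_a_at and 1437042_at. Among the first 3 the smaller of the 2 differences was 0.25 for Cyp1a1, 0.06 for Cyp1b1 and 0.10 for Tiparp. The median difference over the 17 was 0.12 without and 0.08 with the antibody, beside 0.00 and -0.00283 over all probe sets. Probe sets of 1 gene read the same transcripts and are not independent, and 0 of the 17 passed 1.5-fold in both pairs, as 0.127% of all probe sets did.

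**Figure D3:**
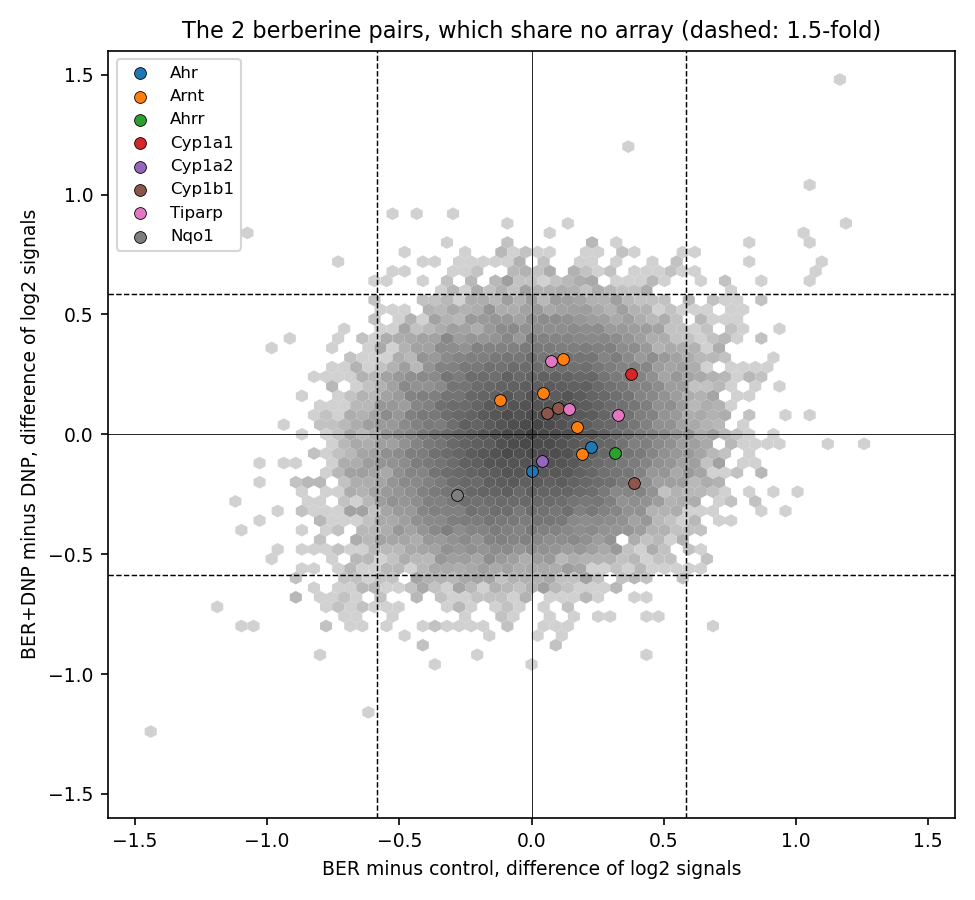
Difference of log2 signals in BER minus control (horizontal axis) against that in BER+DNP minus DNP (vertical axis); coloured points are the 17 probe sets, grey is the density of all 45037 and dashed lines mark 1.5-fold. All coloured points lie inside the central square, with Cyp1a1 at 0.38 and 0.25, Nqo1 at -0.28 and -0.25 and Cyp1b1 1416612_at at 0.39 and -0.20.

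With anti-DNP IgE the differences of the AHR genes were mixed in direction. In DNP against control 0 of the 17 passed 1.5-fold, beside 1.45% of all probe sets, and the differences ran between -0.40 (Arnt 1449696_at) and 0.32 (Ahrr). Both antibody arrays were above both others in 2 of the 17, Ahr 1450695_at and Cyp1a2, where 16.0% of all probe sets were. They were below in 4, which were Arnt 1449696_at, Cyp1b1 1416613_at and both Tiparp 1452160_at and 1452161_at, where 18.1% of all were. In both antibody pairs 0 of the 17 passed 1.5-fold the same way, as 0.0311% of all probe sets did. The medians over the 17 were 0.05 in DNP against control and -0.05 in BER+DNP against BER. In BER+DNP against control 0 of the 17 passed, beside 0.737% of all probe sets that were higher and 0.764% that were lower, with a median of 0.05 and differences between -0.23 and 0.38.

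Among other genes of the pathway, 3 lists were described by the brightest probe set of each gene. The first held the receptor's chaperones, partners and coactivators, with a probe set for 21 of 25 genes. In neither berberine pair did any of the 21 pass 1.5-fold (0 in each), beside 1.79% and 1.10% of all 18193 genes, and the medians were -0.02 and 0.03, beside 0.00 and -0.01 over all genes. The chaperone gene Hsp90aa1 had 9.45 in BER+DNP and 9.45 in BER, against 9.69 in DNP and 9.72 in control. Hif1a, which encodes the hypoxia factor subunit that also pairs with ARNT, had 3.35 in BER+DNP, 3.40 in BER, 3.80 in DNP and 3.94 in control in its brightest probe set. Both berberine arrays were the lower ones, with differences of -0.45 in BER+DNP against DNP and -0.55 in BER against control. In BER+DNP against control 1 of the 21 passed 1.5-fold downwards, Hif1a with -0.59, and 1 upwards, Sp1 with 0.90. Of all probe sets, 0.764% were lower and 0.737% higher by that fold there. The other 3 Hif1a probe sets, below the median of all probe sets, differed by -0.30 to -0.10 in BER+DNP against DNP and by -0.69 to -0.14 in BER against control. Sp1, which encodes a factor that binds GC boxes beside response elements, had 4.12 in BER+DNP and 3.80 in DNP, against 3.30 in BER and 3.21 in control. Its 2 further probe sets, with means of 2.27 and 2.06, gave 0.10 and 0.13 in BER+DNP against BER, where the brightest gave 0.81. In DNP against control they gave -0.47 and -0.01, where the brightest gave 0.59. In BER+DNP against control they gave -0.25 and 0.45, where the brightest gave 0.90.

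Further reported AHR targets had a probe set for 33 of 41 genes. In BER against control 0 of the 33 passed 1.5-fold, beside 1.79% of all genes, with a median of 0.04. When berberine was given with the antibody 1 of the 33 passed, beside 1.10% of all genes, with a median of 0.02. That gene, lower in BER+DNP, was Tgfb1, a cytokine gene, with 5.06 in BER+DNP against 5.80 in DNP, and its second probe set had 4.09 in BER+DNP against 3.81 in DNP, the opposite direction. In DNP against control 1 of the 33 passed, the immediate early gene Fos, with 5.88 in DNP against 5.17 in control; 1.45% of all genes passed there in either direction.

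NRF2 targets were listed because Nqo1 answers to both factors, and 20 of 23 had a probe set. Of the 20, 1 passed 1.5-fold in each berberine pair, both higher, beside 1.79% of all genes in BER against control and 1.10% in the pair with the antibody, and the medians were -0.01 and 0.05. The first was Hmox1, the haem oxygenase gene, with 3.90 in BER+DNP, 4.21 in BER, 3.83 in DNP and 3.49 in control, so that the berberine difference was 0.72 without and 0.07 with the antibody. The second was Gclc, the catalytic subunit of glutathione synthesis, with 3.72 in BER+DNP and 3.63 in BER, against 3.13 in DNP and 3.19 in control. Both berberine arrays were higher for Gclc, by 0.59 with and 0.45 without the antibody, while its dimmer probe set gave -0.07 in BER+DNP against DNP and -0.10 in BER against control. The list had no common direction: 12 of the 20 lay above 0 and 6 below it with the antibody, and 10 above and 10 below without it. Lower in both pairs, as Nqo1 was, were for example Gclm, the other subunit of the enzyme of Gclc (-0.36 with and -0.17 without the antibody), and the glutathione reductase gene Gsr (-0.16 and -0.11), neither past 1.5-fold and both named after their values were seen. Genes of the list also lay above 0 in both pairs, Hmox1 and Gclc among them, so Gclm and Gsr do not stand for the list.

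**Figure D4:**
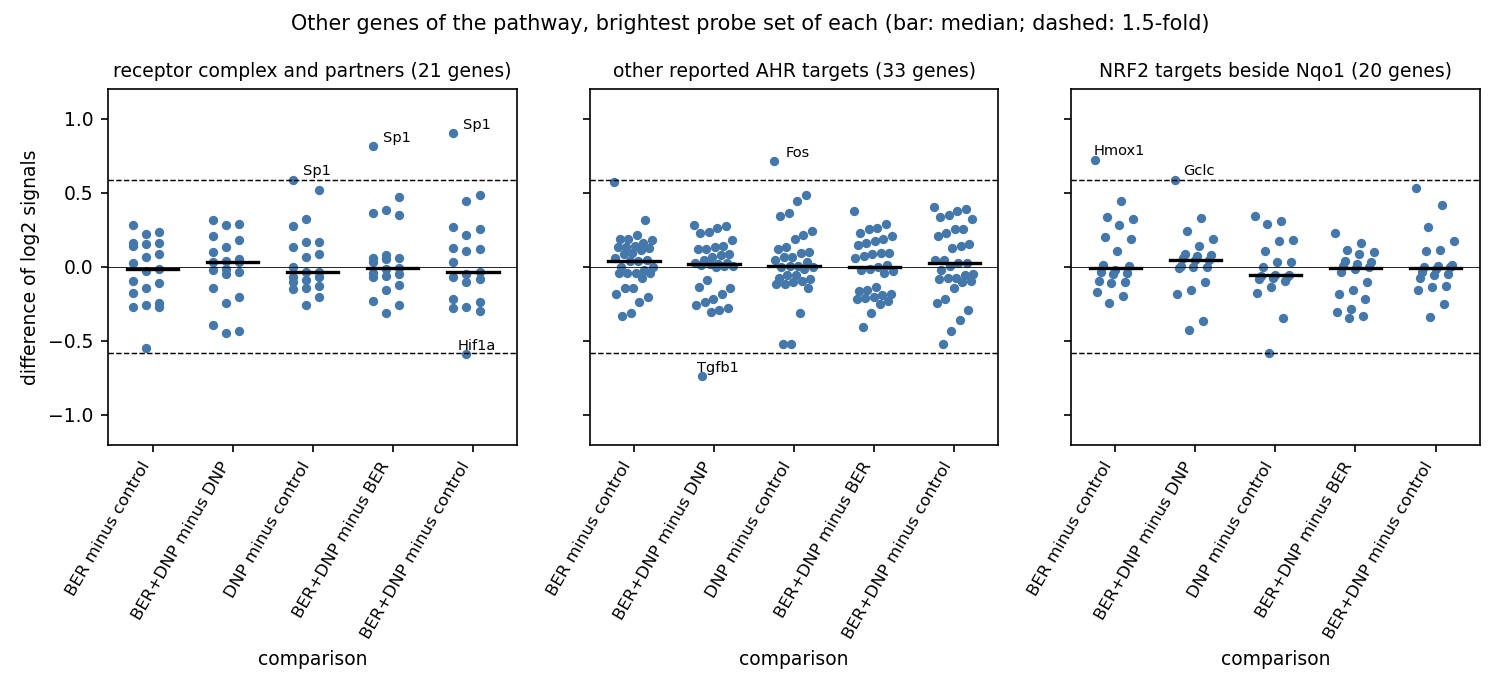
Difference of log2 signals (vertical axis) of the brightest probe set of each gene in 3 lists, in 5 comparisons (horizontal axis); points are genes, bars are list medians, dashed lines mark 1.5-fold and genes past them are named. The medians lie between -0.06 and 0.05, and the 6 genes named are Sp1, Hif1a, Fos, Tgfb1, Hmox1 and Gclc.

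None of the 8 genes had a brightest probe set that was at or above the array median and spanned 0.5 over the 4 arrays, the condition set for naming genes of like pattern, so no such genes are named. The widest span among the brightest probe sets was 0.38, in Cyp1a1, followed by 0.34 in Nqo1 and 0.32 in Ahrr. Across the whole table the array medians lay between 3.13 and 3.15, which normalization can bring together. Correlations between arrays lay between 0.988 and 0.991. Of 14 genes listed as mast cell markers, not all of them particular to these cells, 6 had a probe set at or above the median of all probe sets. Kit and Fcer1a, the receptors for stem cell factor and IgE, lay below it with means of 2.78 and 2.43, while the transcription factor gene Gata2 and the histamine-forming Hdc lay above it at 5.87 and 5.50. The log2 of the summed signal of the mast cell list was 7.77 in BER+DNP, 7.57 in BER, 7.75 in DNP and 7.57 in control. That of 6 pan-leukocyte markers was 7.26, 7.51, 7.39 and 7.51 on the same arrays. Linear signals were summed, so the brightest probe sets weigh most and the sums do not describe a list as a whole. Such bright members were Gata2 and Hdc in the mast cell list and Laptm5, with a mean of 6.69, among the pan-leukocyte markers. Of 7 epithelial markers, 6 lay at or above the median of all probe sets. So did 4 of 6 pan-leukocyte markers, 4 of 6 fibroblast markers and the 3 hepatocyte markers with a probe set. All these counts take the brightest probe set of a gene against a median over all probe sets. The share of all genes at or above it is not given here, so the counts do not show that a cell type was present. The epithelial sum was 10.5 in BER+DNP, 10.4 in BER, 10.6 in DNP and 10.4 in control. Krt17, the brightest of the epithelial list and so of most weight in that sum, had a mean of 9.60, and Cdh1, below the median, of 1.5. The mast cell gene Cpa3, dim on the arrays, had the highest difference of all probe sets in BER against control, 1.26. In BER+DNP against DNP, however, Cpa3 gave -0.04. Its control signal, 1.90, was the lowest of the 4, and DNP against control gave 0.65. The part of these markers in the values above was not tested.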

How the data were processed

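The 4 arrays, 1 a group, were used as 1 table of log2 signals deposited by the authors, made with Affymetrix Expression Console per the submitters' processing notes; its version, the summary algorithm and the background correction are not stated there, and detection calls were not used here. The log2 scale was inferred from the range of the signals, 1.05 to 14.0. The table was taken as normalized and used unchanged. The 64 control probe sets were left out.

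Gene symbols came from a platform annotation dated 2016, in which 34945 probe sets carry 1 symbol; 0 probe sets with several symbols name a gene studied here. No filter was set on the 17 probe sets. Differences of log2 signals were computed for 5 comparisons and counted at 1.5-fold, beside all probe sets, with Python 3.11.15 and pandas 2.3.3; the code was tested on simulated data. Of the listed pathway genes, those past 1.5-fold in any comparison are named, by brightest probe set, with Hsp90aa1, Gclm and Gsr added after their values were seen. The genes, lists and thresholds were chosen with earlier results of these data known. With 1 array a group there is no replicate error, and the number of arrays limits the precision; a fit of 2 additive treatment effects, with 1 degree of freedom left over and no interaction, was not run. Alternatives were a filter at the median mean signal, quantile normalization, 32 added to the linear signal, leaving out probe sets with suffix s or x, the brightest probe set a gene, and 2-fold.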

Additional observations from a re-analysis of the deposited data

Results flagged for a closer look

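Cyp1b1 probe set 1416612_at was singled out because its 2 berberine differences had opposite signs and lay at least 1.5-fold apart. BER+DNP against DNP gave -0.20 and BER against control 0.39, so the difference of the differences was -0.59. Since DNP and control had equal signals, this is the same number as BER+DNP against BER and not a further result. With 1 array a group it was not tested, and the other probe sets of the gene, 1432081_at and 1416613_at, gave 0.03 and 0.01 for the difference of the differences. No group has enough arrays to look for an outlying one.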

How the results depend on the processing

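The count of AHR gene probe sets past 1.5-fold stayed at 0 under all 6 alternatives in BER against control, BER+DNP against DNP, DNP against control and BER+DNP against control. Only quantile normalization could have raised such a count. The other alternatives take fewer probe sets, a higher threshold or smaller differences, so with them the 0 was fixed in advance. In BER+DNP against BER the count of 1 (Cyp1b1 1416612_at) remained with the filter, with quantile normalization and without probe sets of suffix s or x; it was 0 with 32 added to the linear signal, 0 with the brightest probe set of each gene, which leaves this probe set out, and 0 at 2-fold. With 32 added, its difference there was -0.19, since an added constant shrinks differences of dim signals. Of the 85 differences (17 probe sets in 5 comparisons), 0 changed sign with quantile normalization, which moved them by at most 0.046. Adding 32 keeps the order of the signals of a probe set and so cannot change a sign. With 32 added, 15 of the 85 differences moved by more than the SD of all probe sets in that comparison, and Cyp1a1 came to 0.06 in BER against control. That SD describes spread across probe sets and not replicate error. No paired analysis was possible because each group holds 1 array, and for the same reason no replicate could be left out. Small differences at these signals do not show that a gene was unchanged.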

Other observations

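Nfe2l2, which encodes NRF2, was higher on both berberine arrays in its brighter probe set 1416543_at and was looked at after its values were seen. It had 3.64 in BER+DNP and 3.86 in BER, against 3.36 in DNP and 3.29 in control, differences of 0.28 with and 0.57 without the antibody. A second, dim probe set, 1457117_at, had 2.05 in BER+DNP and 1.86 in BER, against 1.89 in DNP and 1.99 in control, which gave 0.17 with and -0.13 without the antibody.

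Exactly equal signals on 2 arrays occurred in 3 of the 17 AHR gene probe sets, those of Ahrr and 1 each of Ahr (1450695_at) and Cyp1b1 (1416612_at). Over all probe sets the share was 9.49%, with 11.7% below and 7.29% at or above the median mean signal. Differences of 0.00 in the deposited table therefore do not measure how close 2 arrays were.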
